A study of Mus musculus with 2 samples.

Results

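The DNA methylation machinery of hippocampal chromatin was described here through 10 of the 21938 protein-coding genes of the mouse: the writers Dnmt1, Dnmt3a and Dnmt3b with their partner Uhrf1, the erasers Tet1, Tet2 and Tet3, and the reader family members Mbd1, Mbd2 and Mbd3. The list is of named genes grouped by function, and no measured value enters the rule. It was chosen with earlier results of these data known, however, so its counts are descriptions only. The data were DNase-seq, which maps chromatin that the nuclease DNase I can cut, from hippocampus (tissue type "layer of hippocampus", with no layer named) at the age of 25 days. The mice were B6CASTF1/J females, first-generation hybrids between B6 and the wild-derived strain CAST. The series held 1 group of 2 libraries, biological replicates 1 and 2, with no treatment and no second condition, so no difference between groups could be tested. Both libraries carry the same donor entry but separate tissue samples, and whether they came from different animals is not stated, so their differences may be partly technical.

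DNMT3A and DNMT3B place new methyl groups on cytosines, mostly at CpG dinucleotides, while DNMT1, guided by UHRF1 to newly copied DNA, carries the pattern through cell division. The TET enzymes oxidise methylated cytosine, which leads to its removal, and proteins with a methyl-CpG binding domain read the mark and bring in repressors such as the NuRD complex. In the brain much of this machinery stays in use in neurons that no longer divide, where DNMT3A also methylates cytosines outside CpG during early postnatal life.

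Replicate 1 held 61466 peaks and replicate 2 held 50379 in the shorter of their 2 deposited lists, called strict here. Every strict peak tested at a start of a protein-coding gene held a base at a false discovery rate (FDR) of the cut rate of 0.001 or less. The signal is the strength that the authors' peak file gives each peak. Its scaling is not stated, sequencing depth is unknown from the files used, and levels are therefore set beside the medians of their own library. Replicate 1 had the higher promoter signal at 99.4% of genes open in both. The tissue label was checked against marker genes: 6 of 6 pan-neuronal and 5 of 7 hippocampal excitatory neuron markers had open promoters. Of the other lists, 0 of 6 interneuron, 1 of 6 astrocyte, 0 of 6 oligodendrocyte, 0 of 6 microglia and 0 of 5 endothelium markers did, and 0 of 5 liver and 0 of 5 muscle markers. The 1 open astrocyte marker had signals of 6.85 and 1.58, above all listed neuronal markers in replicate 1 but not in replicate 2. In the longer, more permissive lists 5 of 6 astrocyte markers were open. The tissue was thus not free of glial signal in either pair of lists. In a bulk tissue, fewer cells with an open site and a less open site in each cell cannot be told apart.

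A gene was called open when a strict peak of each replicate lay within 500 bp of any of its annotated transcription starts. By this measure 9 of the 10 genes were open, all but Dnmt3a, beside 54.2% of all protein-coding genes. The members had a median of 3.5 separate groups of starts, beside 2 for all protein-coding genes. A gene with more starts has more places where a peak can count. The highest promoter signals belonged to Mbd1, Mbd3 and Dnmt1 in both replicates, and the lowest of the open genes to Dnmt3b in both. The 3 Tet genes lay together below the median of open genes, which was 4.30 in replicate 1 (interquartile range 2.63 to 6.23) and 1.80 in replicate 2 (1.16 to 2.50). Over the 9 open members the medians were 4.13 and 1.48. From the highest to the lowest, the order in replicate 1 was Mbd1, Mbd3, Dnmt1, Uhrf1, Mbd2, Tet1, Tet3, Tet2 and Dnmt3b. In replicate 2 Uhrf1 and Mbd2 changed places, as did Tet3 and Tet2, so neither of these pairs had a fixed order.

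**Figure D1:**
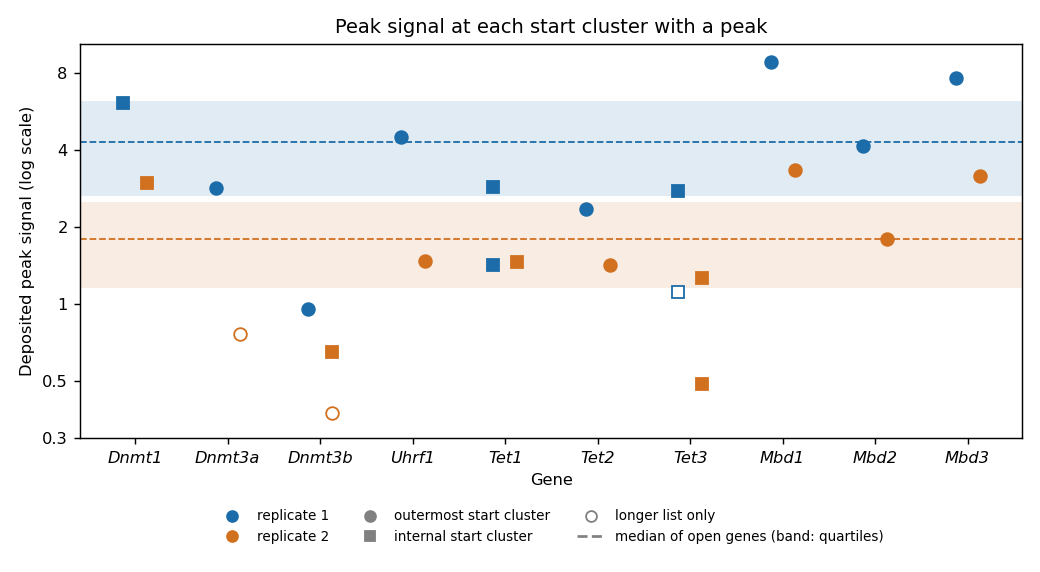
Deposited peak signal on a log scale (vertical axis) at every start cluster of the 10 genes that had a peak (horizontal axis); circles are outermost and squares internal start clusters, and open symbols are peaks found only in the longer list. Dashed lines and bands are the median and quartiles of the open genes in each replicate; Mbd1, Mbd3 and Dnmt1 stand above the upper quartile of replicate 2, and the lone filled symbol of Dnmt3a is that of replicate 1.

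Dnmt1, the maintenance methyltransferase (ENSMUSG00000004099.16, chr9:20907209-20959888, minus strand), had a signal of 6.11 in replicate 1 and 2.98 in replicate 2. These values exceeded those of 73.9% and 86.9% of the open genes. The open chromatin was not at the outermost annotated start of the gene, where the transcript Dnmt1-202 begins and neither replicate had a peak, but 6.91 kb further in. There 4 transcripts start between 20952605 and 20952979, and the peaks (20952801-20953040 in replicate 1, 20952781-20953060 in replicate 2) overlap the first exon of Dnmt1-201, including its 5′ untranslated end. A further peak of replicate 1 alone (20952481-20952700, signal 2.32) covered the more downstream starts of Dnmt1-203 and Dnmt1-207. The starts also differ in CpG content: the observed to expected CpG ratio over 1000 bp was 0.593 at the open cluster and 0.0588 at the outermost start.

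Inside this window both replicates had 3 footprints in common. A footprint is a short stretch within open chromatin that is protected from cutting, and it was counted as shared when the calls of both replicates overlapped by 50% of the shorter. Of these, 2 are shown because they hold the consensus motif of the factor NRF1, and the other because it overlaps GGGCGG, that of the Sp and KLF factors, on its opposite strand. All sequences here are from mm10, on the strand of the gene, with capitals marking shared footprints.
Dnmt1 outer footprint with NRF1 motif, chr9:20952932-20952961: gcctCCGTTGCGCGCATGCGCACTCCcttc
Dnmt1 middle footprint with Sp and KLF motif, chr9:20952858-20952887: atgctgcttCCGCTTGCGCCGCcccctccc
Dnmt1 inner footprint with NRF1 motif, chr9:20952589-20952618: agccaggGCGCGCATGCGCGGGGcagcgtt
The centre of the outer footprint lies 32 bp inside the nearest annotated start, that of the middle 27 bp before one, and that of the inner 1 bp inside one. The inner footprint lies in the peak of replicate 1 alone (20952481-20952700), where replicate 2 had no peak in either list. A match of letters describes the sequence and does not show that a factor was bound.

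Uhrf1, which recognises the hemimethylated DNA left after replication (ENSMUSG00000001228.14, chr17:56303321-56323486, plus strand), had a signal of 4.50 in replicate 1 and 1.48 in replicate 2. Its log2 ratio of replicate 1 over replicate 2, 1.61, was above the upper quartile of open genes (1.53; median 1.24), so its level relative to other genes was less alike in the 2 libraries than for most members. It exceeded 53.0% of the open genes in replicate 1 and 37.3% in replicate 2. The peaks ended 33 bp before the nearest start, inside an intron of the transcripts Uhrf1-201 and Uhrf1-203. The shared region is printed because it is the only open stretch at the starts of this gene and carries 26 CpG dinucleotides in 220 bp.
Uhrf1 open region, chr17:56304061-56304280: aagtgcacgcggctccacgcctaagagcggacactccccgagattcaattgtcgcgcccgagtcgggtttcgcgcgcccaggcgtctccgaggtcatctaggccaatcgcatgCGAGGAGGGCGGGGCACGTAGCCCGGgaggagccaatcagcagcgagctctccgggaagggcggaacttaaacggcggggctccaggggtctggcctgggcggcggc
It held 1 shared footprint, with GGGCGG inside it. The letters of the E2F factors, TTTNNCGC, which are known from genes of the cell cycle, and those of NFY, CCAAT, also occur in it, but outside the footprint. TTTNNCGC was present in 3 of the 13 windows that the RefSeq promoter table (GRCm38.p6) holds for 8 of the members, all 3 of Dnmt1 or Uhrf1, and in 5.17% of all 32851 windows of that table, each from 250 bp before to 50 bp after a start and read on both strands.

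Dnmt3a, the main de novo methyltransferase of postnatal neurons (ENSMUSG00000020661.15, chr12:3806007-3914443, plus strand), was the exception among the members. At its outermost starts replicate 1 had peaks with signals of 2.85 (3806341-3806532) and 1.88 (3806919-3807050), and replicate 2 had no strict peak. Replicate 2 had a peak of 0.765 at the second of these positions in the longer list only (3806910-3807053). Replicate 1 had 344 bases in the start windows at an FDR of 0.001 or less, and replicate 2 had 0. Footprints numbered 7 in replicate 1 and 1 in replicate 2, with 0 shared.

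A promoter with a strict peak of replicate 1 alone was found for 1316 genes, 6% of all protein-coding genes. Their median signal in replicate 1 was 1.07, and Dnmt3a lay above 96.1% of them, with 49 genes higher. Its replicate 1 signal therefore stood among open genes (below their median of 4.30 but above their lower quartile of 2.63), while replicate 2 gave no strict call. With the longer lists all 10 members were open, beside 59.7% of all protein-coding genes.

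Dnmt3a has 18 annotated transcripts, which start in 10 separate clusters, a cluster being starts whose 500 bp windows overlap. A shorter form of the protein is known to come from an internal promoter, although the annotation does not name it. None of the 9 internal clusters had a peak of either replicate, in the strict or the longer lists. They include the pair of starts at 3891728 and 3891744 (Dnmt3a-205 and Dnmt3a-203), the only internal ones that belong to the annotation's basic set of representative transcripts, where the CpG ratio was 0.520 and the nearest strict peaks lay 3505 bp (replicate 1) and 3190 bp (replicate 2) outside the window. At the other 8 internal clusters the CpG ratio was 0.290 or less. Over all protein-coding genes, 26.6% of clusters had a strict peak of both replicates. At a CpG ratio under 0.5 the share was 6.2%, so few or no open clusters among 8 is the usual finding.

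Dnmt3b, the second de novo enzyme, most active in the early embryo (ENSMUSG00000027478.15, chr2:153649450-153687730, plus strand), had the weakest open promoter of the members. Its strongest strict peaks had signals of 0.956 in replicate 1 and 0.653 in replicate 2, above 2.80% and 6.76% of the open genes. They were not at the same start. Replicate 1 had its peak (153649489-153649760) at the outer starts, which are CpG-rich (ratio 0.830), and replicate 2 had its own (153668875-153669060) near an internal start 19.9 kb away, used by the single transcript Dnmt3b-212. An antisense gene, Dnmt3bos, starts in the window of the outer starts, where cuts cannot be assigned to either gene. Being open without any single cluster that both replicates shared occurred in 0.227% of the open genes, 27 in number. In the longer lists both replicates had a peak at the outer starts, with 0.956 and 0.375. Dnmt3b was no longer open with windows of 250 bp, with the stronger 50% of each list, or with starts of basic transcripts only. The footprint calls did coincide once at the outer starts, with the centre 17 bp before a start, and that site is shown as the only shared footprint in the start windows of this gene.
Dnmt3b footprint site, chr2:153649586-153649615: ggcgctccAGTCCGGCAGCGCcggggttaa

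Tet1, the first described of the oxidising enzymes (ENSMUSG00000047146.17, chr10:62804570-62908996, minus strand), had signals of 2.86 and 1.46 in replicates 1 and 2, above 28.3% and 36.4% of the open genes. Both came from a start 43.7 kb inside the gene, that of Tet1-202, a noncoding processed transcript, at a shared region (62865241-62865680) in introns of Tet1-201 and Tet1-206. At the 2 starts of basic transcripts (62899118 and 62880014) neither replicate had a peak, and with basic starts only Tet1 was not open; 7 members were, beside 52.4% of all protein-coding genes. A coding start cluster between 62887324 and 62887512 had a peak of replicate 1 alone, with a signal of 1.43. Of the 7 start clusters of Tet1, 1 was thus open in both replicates. Its CpG ratio of 0.390 was the lowest of the open clusters of all members. The stretch before that start is shown, since it is where both replicates placed 2 footprints in a promoter that holds few CpG dinucleotides, 11 in 300 bp.
Tet1 open stretch, chr10:62865381-62865680: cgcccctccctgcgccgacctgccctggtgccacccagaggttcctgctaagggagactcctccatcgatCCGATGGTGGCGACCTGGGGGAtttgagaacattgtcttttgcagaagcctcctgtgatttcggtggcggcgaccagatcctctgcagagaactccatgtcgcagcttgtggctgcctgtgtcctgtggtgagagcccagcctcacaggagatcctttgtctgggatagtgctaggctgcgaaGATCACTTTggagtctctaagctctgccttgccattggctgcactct
CCAAT, on the opposite strand, and TCCTGCNA, the letters of the factor Kaiso, occur in it outside the footprints. Neither footprint held any of the 14 motifs searched.

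Tet2 (ENSMUSG00000040943.12, chr3:133463679-133545139, minus strand) had signals of 2.35 and 1.42, above 20.7% and 35.0% of the open genes. Its log2 ratio between replicates, 0.73, was below the lower quartile of 0.96. The low peak height went with a broad open stretch at its outermost starts: 1321 bases of the start windows in replicate 1 and 1422 in replicate 2 were at an FDR of 0.001 or less, beside medians of 705 and 629 over the open genes. The start windows are themselves longer where starts lie apart, and here 5 transcripts start within 133544286-133545139. An antisense noncoding gene, Gm42567, starts in the same window, and cuts cannot be assigned to either gene. The centres of the 3 shared footprints of Tet2 lay within 45 bp of a start, all in the region 133544141-133544480. In the wider region beside it, 133544521-133545300, replicate 1 had 4 footprints and replicate 2 had 0. The 3 sites are shown as the only shared footprints in the start windows of this gene.
Tet2 outer footprint, chr3:133544386-133544415: catgccagtcacGTCCGCCccctcggcggc
Tet2 middle footprint, chr3:133544354-133544383: cctgagAGCCGGCCCCGCCGAGCCtagaga
Tet2 inner footprint, chr3:133544227-133544256: agaaaGGAGACCCGGCTGCGACGGCGgtgg
GGGCGG was found, on the opposite strand, at the outer of them only.

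Tet3, the TET enzyme known as prominent in neurons (ENSMUSG00000034832.15, chr6:83362373-83459084, minus strand), had signals of 2.77 and 1.26, above 27.0% and 28.7% of the open genes. These are the strongest peaks in its start windows and lie at different sites: that of replicate 1 (83441661-83441860) covers a start, and that of replicate 2 (83440881-83441160) is 472 bp inside the nearest. The peak of replicate 2 that overlaps the former (83441561-83441860) had a signal of 1.21. Of its 3 start clusters, the innermost (83441632-83441678) was open in both replicates, 17.4 kb inside the outermost start. A noncoding gene, B230319C09Rik, starts in the same window. The middle cluster, at 83456392, held the most CpG dinucleotides of all 45 clusters, 127 in its 1000 bp, at a ratio of 0.820. It had a weak strict peak of replicate 2 alone (0.488), and in the longer lists signals of 1.11 and 0.503. High CpG content at this Tet3 start therefore went with little signal in either library.

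Mbd3 (ENSMUSG00000035478.14, chr10:80392539-80399550, minus strand), a NuRD subunit that binds methylated DNA poorly despite its name, had signals of 7.62 and 3.17, above 86.3% and 90.4% of the open genes. Its starts have the highest CpG ratio of the members, 0.901. The peaks at the start were offset between the replicates, with replicate 1 at 80399441-80399660 and replicate 2 at 80399621-80399860. A second open region in an intron (80398841-80399060) was nearly as strong, at 7.20 and 2.83. Mbd3 had 11 footprints in each replicate and 7 in common, the most of any member. Its upstream stretch, ending at the base before the outermost start, is shown because 4 of these footprints lie in it.
Mbd3 upstream stretch, chr10:80399551-80399850: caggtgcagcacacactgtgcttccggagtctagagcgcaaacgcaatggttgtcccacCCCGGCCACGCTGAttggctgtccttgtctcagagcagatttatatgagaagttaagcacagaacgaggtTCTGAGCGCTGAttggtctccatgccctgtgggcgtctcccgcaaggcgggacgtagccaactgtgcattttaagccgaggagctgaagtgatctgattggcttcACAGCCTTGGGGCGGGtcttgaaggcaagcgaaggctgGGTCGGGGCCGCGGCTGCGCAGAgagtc
In this order the first and the second of the 4 footprints touch CCAAT on the strand opposite to that printed. The third of them holds GGGCGG.

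Mbd1 (ENSMUSG00000024561.10, chr18:74267605-74282732, plus strand), which binds methylated CpG and acts as a repressor, had the highest signals of the members, 8.84 and 3.34. They lay above 92.0% and 92.8% of the open genes, and both replicates had a single peak, within 74267981-74268280, in the outermost start cluster, where it overlaps the 5′ untranslated end of Mbd1-201. It had 6 shared footprints, beside a median of 2 per open gene, with centres from 163 bp before to 3 bp after a start. When widened by 8 bp on each side, 2 of them held the NRF1 motif.

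Mbd2 (ENSMUSG00000024513.16, chr18:70568189-70626131, plus strand), a reader that takes the place of MBD3 in some NuRD complexes, was near the middle. Signals of 4.13 and 1.80 lay above 47.6% and 50.1% of the open genes. The shared region, 70568061-70568480, spans the first exon, with coding and untranslated sequence of Mbd2-201 and Mbd2-202. Each of its 3 shared footprints held GGGCGG when widened by 8 bp on each side.

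Across the 10 genes the annotation places 45 start clusters, of which 8 (17.8%) had a strict peak of both replicates, beside 26.6% of all clusters of protein-coding genes. A further 3 had a peak of replicate 1 only and 2 of replicate 2 only, and 32 had no peak of either replicate even in the longer lists. Each of the 8 genes with a shared start cluster had 1 such cluster. Among open genes 8.17% had 2 or more, a share that gives few or none in 8 genes. Under other settings Tet2 had 2 (windows of 250 bp), as did Tet3 (longer lists). For Uhrf1, Tet2, Mbd1, Mbd2 and Mbd3 the shared cluster was the outermost, and for Dnmt1, Tet1 and Tet3 an internal one. The outermost cluster was not open in 12% of open genes with 2 or more clusters. That measure also counts Dnmt3b, which had no shared cluster, so the outermost was open in 5 of the 9 open members. Open clusters had CpG ratios of 0.390 to 0.901 with a median of 0.569, and the others 0 to 0.830 with a median of 0.258. At a ratio of 0.5 or more, 7 of 12 clusters were open, beside 78.3% for all genes, and below it 1 of 33, that of Tet1, beside 6.20%.

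**Figure D2:**
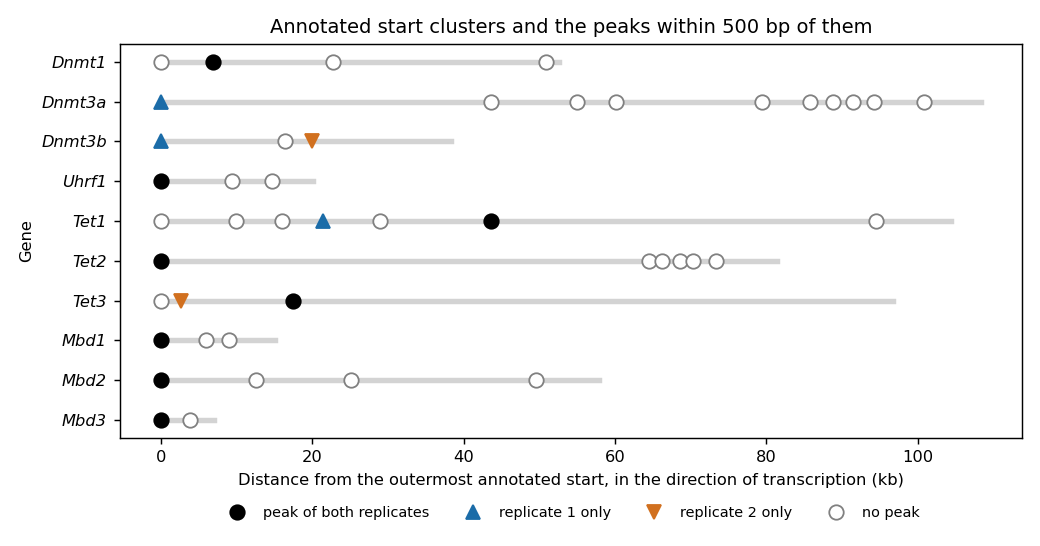
Start clusters of the 10 genes, one gene per line (vertical axis), at their distance in kb from the outermost start (horizontal axis); grey bars are gene bodies. Filled circles mark the 8 clusters with a peak of both replicates, triangles a peak of 1 replicate and open circles no strict peak. Dnmt3a shows 9 internal clusters with no peak, and 32 of all 45 clusters had none.

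The cut-rate files gave the same split of the members as the peaks. In 9 of the 10 genes, all but Dnmt3a, both replicates had a start-window base at an FDR of 0.001 or less, beside 55.3% of all protein-coding genes. Since the strict peaks rest on the same threshold, this is not separate evidence. The 9 genes had 27 shared footprints in all, and each had at least 1, beside 89% of open genes. Their median of 3 per gene stood beside 2 for all open genes. When widened by 8 bp on each side, 8 of the 27 footprints held GGGCGG (29.6%, beside 24.4% of 27429 shared footprints at the starts of all protein-coding genes). The NRF1 motif was in 4 (14.8% beside 5.05%), in Dnmt1 and Mbd1, and CCAAT was in 3 (11.1% beside 7.79%), in Mbd1 and Mbd3. Of the 27, 13 held none of the motifs. These footprints come from 9 genes and share promoters, so the shares are descriptions only.

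Away from the starts, the surroundings of a gene were taken as its body and 50 kb on either side. Distal regions, which are shared by both replicates and touch no start window of a protein-coding or long noncoding gene, numbered 35 around the 10 genes. At least 1 was found for 9 members, all but Mbd1, beside 72.4% of all protein-coding genes. Of the 35, 7 lay in introns of the members, 1 in an exon and 27 outside them, and 12 were inside another protein-coding gene, so position alone links them to a member. Their median signals were 2.60 and 0.983, beside 1.98 and 0.855 for all 21904 distal regions. A shared footprint was found in 32 of the 35 (91.4%, beside 81.1%).

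Dnmt3a, whose starts lacked a strict peak of replicate 2, had the most distal regions of the members. It had 10, or 4.80 per 100 kb, a density above that of 97.9% of protein-coding genes, for which the median was 0.957. None of the shared regions in its surroundings was at a start of any gene. Inside the gene body 4 lay in introns, and 4 or more in a body was found for 2.35% of protein-coding genes. Per 100 kb of body this was 3.69, above 96.9% of the 5007 genes of at least 50 kb, whose median was 0.742. The intronic signals ran from 1.04 to 2.60 in replicate 1 and from 0.743 to 1.23 in replicate 2. The strongest of the 10 lay 14 kb before the first start, with signals of 11.9 and 2.78. Each of these 10 regions had strict peaks of both replicates by definition, and a shared footprint in each. The starts of Dnmt3a had neither, but their strongest replicate 1 signal, 2.85, was above all 4 intronic signals. Their replicate 2 signal in the longer list, 0.765, was above the lowest intronic one. These 2 start values come from different sites. At the site of 2.85 replicate 2 had no peak in either list. At that of 0.765 replicate 1 had 1.88, which was below the highest intronic signal of 2.60. With the longer lists the outermost start cluster had a peak of both replicates, and with the strict lists of replicate 1 only.

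The strongest distal and the strongest intronic region of Dnmt3a are printed, as sites with a strict peak of both replicates, which the starts lacked in replicate 2.
Dnmt3a upstream region, chr12:3791881-3792120: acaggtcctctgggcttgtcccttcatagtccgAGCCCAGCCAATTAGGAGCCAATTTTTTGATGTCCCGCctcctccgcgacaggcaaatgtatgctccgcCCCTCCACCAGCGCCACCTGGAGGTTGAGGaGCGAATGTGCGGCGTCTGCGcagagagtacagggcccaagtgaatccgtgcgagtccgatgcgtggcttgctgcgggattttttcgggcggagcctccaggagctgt
Dnmt3a intronic region, chr12:3871741-3871960: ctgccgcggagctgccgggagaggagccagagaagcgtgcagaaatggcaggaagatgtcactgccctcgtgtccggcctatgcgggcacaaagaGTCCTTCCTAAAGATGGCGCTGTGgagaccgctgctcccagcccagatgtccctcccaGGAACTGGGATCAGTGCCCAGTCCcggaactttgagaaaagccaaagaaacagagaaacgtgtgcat
The upstream region, between genes, has 3 shared footprints. They hold CCAAT in 2 copies on the printed strand, and the core motif of CTCF on the opposite strand, where they also overlap GGGCGG; CTCF is the factor best known for anchoring chromatin loops. The intronic region has 2 shared footprints, of which the first holds AANATGGCG, the letters of YY1, on the printed strand. TCCTGCNA (Kaiso) and CAGATG occur in that region outside the footprints. The same CTCF core was within 200 bp windows of 3 of the 10 regions around Dnmt3a and of 7 of the 35 in all, beside 17.1% of all distal regions. The NRF1 motif was in 3 of the 35, beside 0.721%, in the surroundings of Dnmt1, Mbd2 and Mbd3, and the first of these regions lay inside Angptl6. Some motifs were below their share in all distal regions: CAGATG, the E-box of NEUROD factors, was in 3 of the 35, beside 24.4%, and CCAAT in 5, beside 24.2%.

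**Figure D3:**
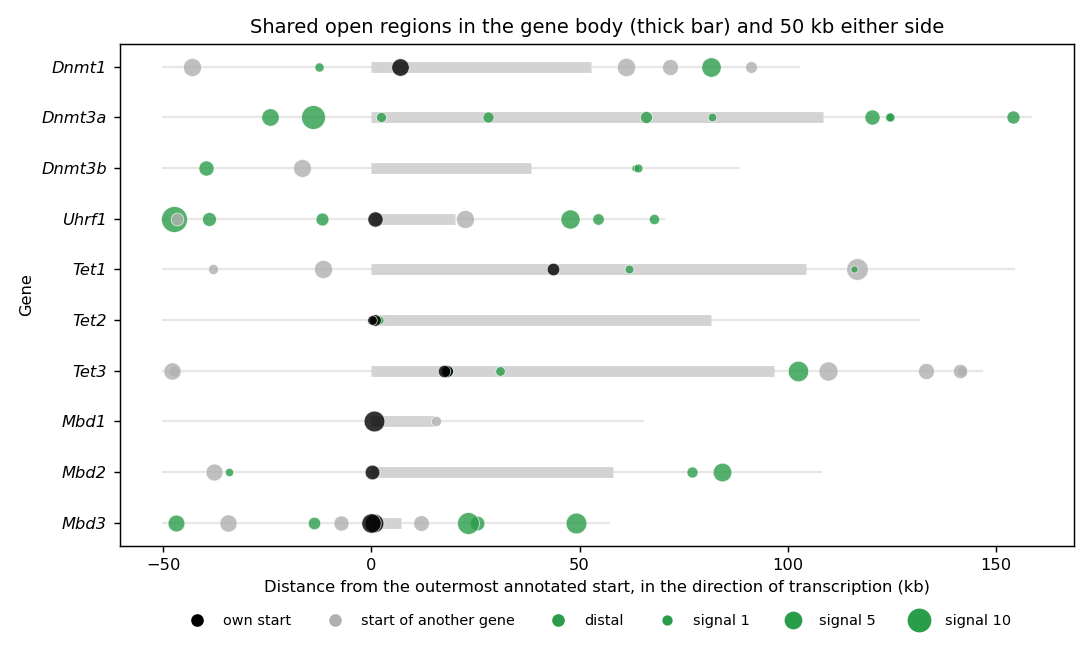
Regions open in both replicates around each gene, one gene per line (vertical axis), at their distance in kb from the outermost start (horizontal axis); circle area grows with the signal of replicate 1, and thick bars are gene bodies. Distal regions are green, those at starts of the gene itself black and at starts of other genes grey; Dnmt3a has 10 green circles and no black one, and Mbd1 has none in green.

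Uhrf1 and Mbd3 had comparable densities. Uhrf1 had 6 distal regions (4.99 per 100 kb, above 98.3% of genes). The strongest, chr17:56255861-56256160, with 14.1 and 3.56, lay near the start of Fem1a, and 3 others lay in the body of Kdm4b, a histone demethylase gene. Mbd3 had 5 (4.67 per 100 kb, above 97.5%), all outside its own short body, 1 of them within Tcf3. Their signals in replicate 1 went from 2.84 to 9.87, and in replicate 2 from 0.795 to 1.74.

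Around the remaining genes, distal regions were fewer. Dnmt3b had 3, of which 2 lay in Dnmt3c, its rodent duplicate; how the authors' processing placed reads that match both copies is not given in the sources used here. Mbd2 and Tet3 also had 3 each, Dnmt1 and Tet1 had 2 each and Tet2 had 1. Per 100 kb they ranged from 0.551 at Tet2 to 2.17 at Dnmt3b. Mbd1 combined the strongest promoter of the set with 0 distal regions, in surroundings of 115 kb.

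To place the members in their pathway, 57 related genes in 4 roles were examined. This list was drawn up with earlier results of these data known, so its share is a description only. Open promoters were found for 50 of them (87.7%, beside 54.2% of all protein-coding genes), with median signals of 4.64 and 2.01. Of 9 genes related to writing 8 were open, all but Dnmt3l, the inactive partner of the de novo enzymes known from germ cells, which had no peak. Mat2a, which makes the methyl donor, stood highest among them by the mean of its ranks in both replicates (6.13 and 3.03) and Trdmt1, the tRNA methyltransferase also called Dnmt2, lowest (2.08 and 1.16), although the remodeller gene Hells was lower in replicate 2 (0.938). Of 18 genes of removal and repair 17 were open. Xrcc1, a repair scaffold, had 8.34 and 3.53, and Cxxc4, a CXXC zinc finger gene, 2.76 and 0.803. The exception was the glycosylase gene Neil2, with 1.32 in replicate 1 and no strict peak in replicate 2.

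Of 20 genes related to reading 16 were open. Kmt2a, a histone methyltransferase whose CXXC domain binds unmethylated CpG, reached 13.4 and 3.60, and Atrx, a chromatin remodeller, 1.58 and 0.735. Mbd3l1 and Mbd3l2, Mbd3 relatives, had no peak. Zbtb38, a zinc finger reader, had 1.18 and Zfp57, known from imprinted loci, 0.721, both in replicate 1 only. Of 10 further NuRD genes 9 were open, from Gatad2a with 10.4 and 4.32 to Mta3 with 1.56 and 0.615. Mta1 had a peak of 1.18 in replicate 1 alone. Dnmt3b, at 0.956 and 0.653, had a lower replicate 1 signal than any open gene of the 57. It was a little above Mta3 in replicate 2.

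**Figure D4:**
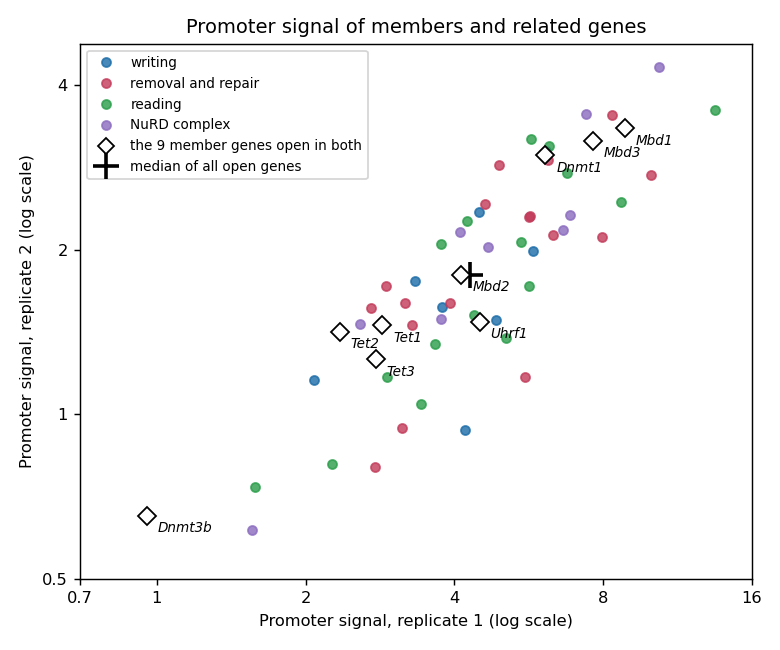
Promoter signal of replicate 1 (horizontal axis, log scale) and replicate 2 (vertical axis, log scale) for the 50 open related genes, coloured by role, and for the 9 open members (diamonds). The cross is the median of all open genes at 4.30 and 1.80; Dnmt3b lies at the lower left, the 3 Tet genes below the cross, and Mbd1, Mbd3 and Dnmt1 above it.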

How the data were processed

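For each library 4 files were used (2 peak lists, footprints and cut rates), all on mm10 per the labels. Which aligner, caller and filters made them is not given in the sources used here, and the authors deposited a signal for each peak (unit not stated), which was used without further scaling. The deposited cut-rate p-values are FDRs up to 0.05, and the deposited footprint FDR is constant at 0.01. The strict list is the shorter of the pair. Genes and starts came from GENCODE M21. Overlaps were computed in Python 3.11.15 with numpy 2.4.6, and figures with matplotlib 3.10.9; the overlap code was tested on simulated data. Shared regions are peaks of both libraries joined at 1 bp or more of overlap. Motifs were sought on both strands of mm10, and in RefSeq promoters of GRCm38.p6, which matched 8 of the 10 genes. Named genes were all members, the related genes not open, the highest and lowest of each role by mean rank, and genes that a region or start window of a member overlaps. Members, lists and motifs were chosen with earlier results of these data known. Alternatives covered the peak list, window, starts, overlap and each library alone. With 2 libraries of 1 group no test was made.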

Additional observations from a re-analysis of the deposited data

How the results depend on the processing

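Precision was limited by having 2 libraries, with depth unknown. Of 10 members 9 were open, and 7 to 10 were under the alternatives: 10 with the longer lists, 9 with windows of 1000 bp, 8 with windows of 250 bp or the stronger 50% of each list (Dnmt3b lost), and 7 with basic starts (Dnmt3b and Tet1 lost). Taken from a single library the count was 9 without replicate 1 and 10 without replicate 2, when Dnmt3a was called. The 8 shared start clusters became 7 to 11. The 35 distal regions became 22 with the stronger 50% of each list and 51 with the longer lists. They became 22 with 25 kb and 53 with 100 kb on either side, as less or more was searched. Leaving out 1 library gave 43 to 45, and joining peaks at 50% of the shorter gave 34. The 27 shared footprints became 51 without replicate 1 and 72 without replicate 2, since no second call was then required, and 25 to 31 under the other settings. The 50 open related genes ranged from 48 to 54. No paired analysis was possible because the series has a single group.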
